A study of Mus musculus with 6 samples.

Results

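Thrombospondins, tenascins, periostin and SPARC are secreted proteins that sit among the collagen fibrils of the aortic valve and tune how cells hold on to them. The set comprised 10 genes chosen by symbol, of 46983 in the deposited gene table: the thrombospondins Thbs1, Thbs2, Thbs3, Thbs4 and Comp, the tenascins Tnc and Tnxb, periostin (Postn), and Sparc with its relative Sparcl1. All 10 were found, and all 10 passed the filter on low values (at least 0.1 RPKM in 3 or more libraries). Exons of Postn and Tnc were examined as well.

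These proteins are called matricellular because they modulate the matrix and its receptors more than they bear load. Thrombospondins assemble into trimers (THBS1 and THBS2) or pentamers (THBS3, THBS4 and COMP), and bind calcium and collagens. CD36 and CD47 are known as receptors of THBS1. Tenascin C appears in growing and remodelling tissue, while tenascin X lies along mature collagen fibrils. Periostin and SPARC bind collagen and take part in the processing, cross-linking and assembly of its fibrils, and periostin is known for its part in the maturation of the valve leaflets after birth.

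Aortic valves of wild type C57BL/6J mice were compared by RNA-seq between postnatal day 2 (PND2) and an age of 4 months. Each age had 3 libraries, and each library pooled the valves of 5 to 6 mice. No treatment or engineered allele was used at either age. The library totals were inferred by taking the smallest non-zero product of exon RPKM and exon length as 1 read. They ran from 23810507 to 38994657. The deposited values are RPKM (reads divided by exonic length and by the library total). In PND2 replicate 1 reads summed over genes were 90673545 against a library total of 38994657, so a read could count more than once. Levels of different genes, their order and their sums are therefore approximate when set side by side. Each gene value of the set stood for at least 657 reads, so the spread between libraries, not counting error, limited the comparisons.

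Between PND2 and 4 months, 7 of the 10 genes changed, 3 upward (Comp, Sparcl1 and Tnxb) and 4 downward (Tnc, Postn, Thbs2 and Sparc), at an adjusted p under 0.05 in limma fitted to log2(RPKM + 0.1) of all 25903 genes that passed the filter. Among all tested genes 35.8% were called, 14.7% higher and 21.1% lower at 4 months. The libraries of both ages did not overlap in the same 7 genes, as in 50% of all genes tested. Thbs1, Thbs3 and Thbs4 overlapped between the ages and did not pass the threshold. The median log2 fold change was -0.30 over the 10 genes and -0.14 over all genes tested. Scaling each library by its median moved that of all genes to -0.02 and the share of calls that were higher from 41.1 to 52.7%, while the 7 genes kept their directions under it. Since whole valves were sequenced, fewer cells of a type and less RNA per cell cannot be told apart.

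**Figure D1:**
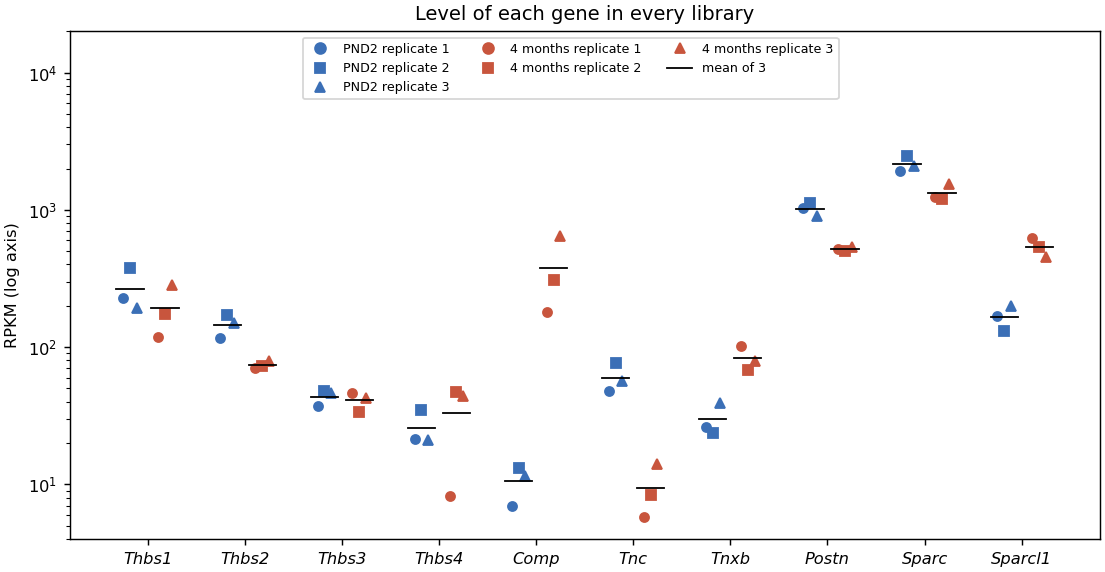
RPKM on a log axis for the 10 genes in each library; blue marks are PND2, red marks 4 months, the mark's shape is the replicate number and black bars are means of 3 libraries. Comp moves from the lowest level of the set at PND2 (6.95 to 13.3 RPKM) to 179 to 642 RPKM, Tnc ends lowest at 5.74 to 14.02 RPKM, and Thbs4 in 4 month replicate 1 lies far below the other 4 month libraries.

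Among the thrombospondins, Comp rose the most. Comp encodes cartilage oligomeric matrix protein, which binds collagen fibrils in cartilage and tendon, and lies on chromosome 8 of mm10 from 70373548 to 70382065. It had 6.95, 13.3 and 11.5 RPKM in PND2 replicates 1 to 3 and 179, 308 and 642 RPKM in 4 month replicates 1 to 3. Every 4 month library was above every PND2 library, although the 4 month values themselves spanned 3.59-fold. The means were 10.6 ± 3.26 (SD, n = 3) and 377 ± 239 RPKM, a 35.6-fold difference. On the log2 scale Comp rose by 4.99 (standard error 0.45, limma adjusted p = 3.3e-04), the largest change of the set. Fits that each omitted 1 library gave 4.51 to 5.43. Comp thereby moved from the 60.0th to the 98.2nd percentile of mean level among the genes tested.

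Thbs2 moved the other way. Thbs2, on chromosome 17 from 14665500 to 14694262, encodes a trimeric thrombospondin that limits vessel growth and affects the calibre of collagen fibrils. Its values were 116, 172 and 149 RPKM at PND2 and 70.3, 72.9 and 79.1 RPKM at 4 months. The 4 month libraries lay close together, within 1.12-fold of each other, and all below the PND2 libraries. Thbs2 fell by 0.96 on the log2 scale (standard error 0.15, limma adjusted p = 0.00294), a 1.97-fold difference of means.

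Thbs1, the other trimeric member and an activator of latent TGF-beta, is on chromosome 2 from 118111876 to 118127133. It had 229, 374 and 194 RPKM at PND2 and 119, 174 and 281 RPKM at 4 months. The values overlapped, and the spread within each age (1.93-fold and 2.36-fold) exceeded the 1.39-fold difference of means. Its log2 fold change was -0.50 (95% confidence interval -1.32 to 0.31, limma adjusted p = 0.302), which leaves room for a fall as large as that of Thbs2 and for a small rise. THBS1 protein is also stored in platelets. The limma adjusted p of 6 platelet and megakaryocyte markers ran from 0.0663 to 0.933, and their summed level was 76.6 to 81.6 RPKM at PND2 and 68.3 to 88.6 RPKM at 4 months.

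Thbs3 and Thbs4 encode pentameric thrombospondins, the former known from the growing skeleton and the latter from tendon and heart. Thbs3, on chromosome 3 from 89215180 to 89226837, had 37.0, 47.6 and 45.9 RPKM at PND2 and 46.2, 33.7 and 42.8 RPKM at 4 months. Its log2 fold change was -0.09 with a 95% confidence interval of -0.45 to 0.26 (limma adjusted p = 0.674), which spans 0.733 to 1.20 times the PND2 level. Its sign turned to 0.03 with median scaling. Mtx1 on the opposite strand covers 6.59% of the exonic bases of Thbs3, and whether reads were counted by strand is not given in the sources used here.

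Thbs4, on chromosome 13 from 92751590 to 92794818, had 21.2, 34.8 and 21.2 RPKM at PND2 and 8.16, 46.9 and 43.8 RPKM at 4 months. In 4 month replicate 1 it was below every PND2 library, and in the other two 4 month libraries above every one of them. Over all 6 libraries its log2 fold change was 0.04 (95% confidence interval -1.46 to 1.53, limma adjusted p = 0.972). Without 4 month replicate 1 it was 0.86 with an adjusted p of 0.0366, so this library decides whether Thbs4 is called. The 8.16 RPKM rest on 1002 reads, and the 5.75-fold span at 4 months was the widest of the set.

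As a family, the thrombospondins changed in make-up more than in sum. Their summed RPKM was 491 ± 131 (SD, n = 3) at PND2 and 716 ± 341 at 4 months. Thbs1 held 46.0 to 58.3% of that sum in the PND2 libraries and 25.8 to 28.2% in those of 4 months. A share also falls when another gene of the sum rises, as Comp did, and the RPKM of Thbs1 itself overlapped between the ages. The share of Thbs2 went from 26.8 to 35.3% down to 7.26 to 16.7%. Comp held 1.69 to 2.73% at PND2 and 42.3, 48.5 and 59.0% in 4 month replicates 1 to 3, more than any other thrombospondin in each of them. The trimeric genes Thbs1 and Thbs2 together reached 5.28, 5.71 and 4.36 times the summed pentameric genes (Thbs3, Thbs4 and Comp) at PND2, and 0.812, 0.635 and 0.494 times at 4 months. The log2 of this ratio was 3.00 lower at 4 months, since its mean went from 2.35 to -0.66 (2-sided exact permutation test, p = 0.1, which is the lowest value possible with 3 libraries per age). Comp carried most of this shift, because without it the ratio was 5.92, 6.63 and 5.11 at PND2 and 3.48, 3.06 and 4.16 at 4 months, lower by 0.73 on the log2 scale (exact permutation test, p = 0.1). The same lowest p holds for the tenascin and SPARC ratios given later.

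**Figure D2:**
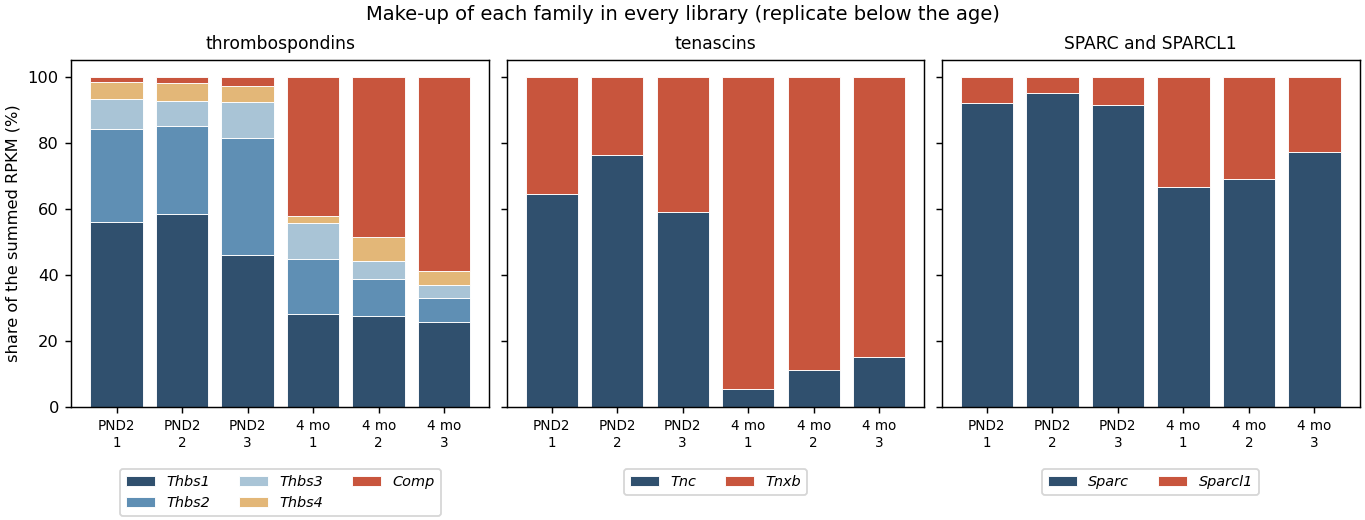
Stacked bars give each gene's share, in percent, of the summed RPKM of its family in every library, with the replicate number under the age. Comp takes 42.3 to 59.0% of the thrombospondin sum at 4 months against 1.69 to 2.73% at PND2, Tnxb takes 85.0 to 94.7% of the tenascin sum at 4 months, and Sparcl1 rises from 4.99 to 8.73% to 22.8 to 33.5% of its pair.

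The tenascins moved in opposite directions. Tnc, on the minus strand of chromosome 4 from 63959785 to 64047015, had 47.6, 76.0 and 56.4 RPKM at PND2 and 5.74, 8.37 and 14.02 RPKM at 4 months. All 4 month libraries lay far below all PND2 libraries. Tnc fell by 2.73 on the log2 scale (standard error 0.32, limma adjusted p = 9.3e-04), a 6.40-fold difference of means and the largest fall of the set. Its mean level went from the 89.6th to the 58.3rd percentile of the genes tested.

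Tnxb, which encodes tenascin X and lies on chromosome 17 from 34670535 to 34719815, had 26.3, 23.7 and 39.1 RPKM at PND2 and 102, 67.8 and 79.3 RPKM at 4 months. All 4 month libraries were above all PND2 libraries. Tnxb rose by 1.50 on the log2 scale (standard error 0.22, limma adjusted p = 0.00229), a 2.80-fold difference of means. Of its transcript sequence 6.80%, in stretches of 47 bases, also occurs in the neighbouring pseudogene Tnxa, so part of its reads cannot be assigned with certainty.

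Within a library, Tnc stood at 1.81, 3.20 and 1.44 times Tnxb at PND2 and at 0.0571, 0.125 and 0.178 times Tnxb at 4 months. The log2 ratio of Tnc to Tnxb was lower by 4.23 at 4 months, with means of 1.02 and -3.21 (exact permutation test, p = 0.1). Summed over both genes the level was 89.7 ± 13.9 RPKM (SD, n = 3) at PND2 and 92.5 ± 15.9 RPKM at 4 months.

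Tenascin C is known to exist in long and short forms that differ in fibronectin type III repeats in the middle of the protein. In GENCODE M21 the gene has 27 exons over 3 full-length coding transcripts, and exons 11 to 16 are each 273 bases long. Of these 6 exons, exon 15 is the one that only 1 of the 3 transcripts holds. It is shown here because it marks the annotated difference in that stretch. Capitals are exon 15 (GRCm38 chr4:63984460-63984732, minus strand), and the lower case letters are 12 bases of each neighbouring exon in Tnc-203.

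Tnc exon 15: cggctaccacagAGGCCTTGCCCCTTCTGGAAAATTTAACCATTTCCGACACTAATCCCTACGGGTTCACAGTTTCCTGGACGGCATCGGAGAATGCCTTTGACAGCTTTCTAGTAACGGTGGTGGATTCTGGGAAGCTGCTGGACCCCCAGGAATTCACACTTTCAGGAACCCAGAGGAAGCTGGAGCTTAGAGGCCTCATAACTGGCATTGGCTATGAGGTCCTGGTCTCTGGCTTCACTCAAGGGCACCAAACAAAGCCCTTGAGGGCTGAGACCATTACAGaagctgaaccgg

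Exon 15 had the lowest mean of these 6 exons at both ages, with 8.92, 17.9 and 8.39 RPKM at PND2 and 1.86, 0.615 and 1.65 RPKM at 4 months. In all 6 exons of 273 bases the 4 month mean was 0.060 to 0.117 of the PND2 mean (median 0.0714). In the other 21 exons it was 0.0946 to 0.266 (median 0.167), with exon 17 next to the stretch at its lower end. Usage differences, each exon's log2 fold change less that of the rest of the gene, ran from -1.18 to -0.15 in the 6 exons and from -0.55 to 1.05 in the other 21. In limma's exon test 0 of 28 Tnc exons were called (lowest adjusted p = 0.587), while 4 (exons 1, 11, 12 and 13) had an unadjusted p under 0.05, and with voom weights 0 were called and 0 had one. The level of the 6 exons over that of the exons on either side was 0.503, 0.398 and 0.440 at PND2 and 0.423, 0.330 and 0.201 at 4 months, and these values overlap. Exon 15 over exons 14 and 16 stood at 0.213, 0.290 and 0.171 at PND2 and at 0.521, 0.119 and 0.456 at 4 months, with a higher mean at 4 months, and overlapped too. At 4 months each of the 6 exons rests on 4 to 46 reads in a library, and what size of shift could be detected at that depth was not tested.

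**Figure D3:**
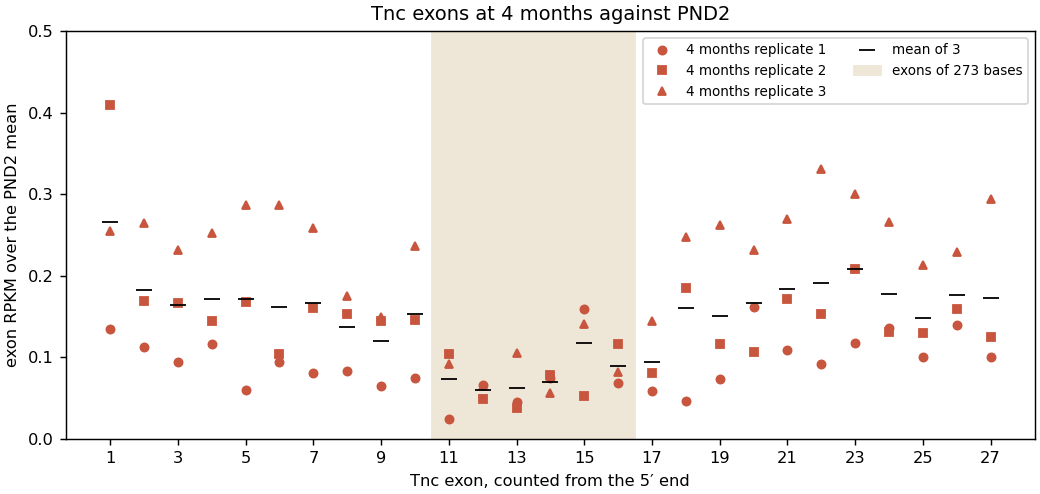
RPKM of each Tnc exon in the 3 libraries of 4 months divided by the PND2 mean of that exon, by exon number, with black bars for means of 3 and shading over the exons of 273 bases. The shaded means lie at 0.060 to 0.117 and the others at 0.0946 to 0.266, and the libraries of neighbouring exons overlap.

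Periostin fell with age. Postn, on chromosome 3 from 54361109 to 54391037, had 1029, 1125 and 905 RPKM at PND2 and 521, 500.2 and 537 RPKM at 4 months. The 4 month libraries differed by only 1.07-fold and all lay below the PND2 libraries. Postn fell by 0.97 on the log2 scale (standard error 0.12, limma adjusted p = 0.00135), a 1.96-fold difference of means. Its level remained high, at the 99.4th and 98.8th percentile of the genes tested.

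Periostin is known to be spliced in its C-terminal part, which follows the fasciclin domains. GENCODE M21 lists 23 exons over 4 full-length coding transcripts. Of these exons 21 occur in all 4, and exons 17 and 21 in 2 each, so that the transcripts hold both (Postn-202), exon 21 alone (Postn-201), exon 17 alone (Postn-203) or neither (Postn-204). Both exons are shown because they were the ones that departed from the rest of the gene. Capitals are the exon and lower case letters are 12 bases of each neighbouring exon in Postn-202. Exon 17 lies at GRCm38 chr3:54380412-54380492 and exon 21 at chr3:54385671-54385754, both on the plus strand and wholly coding.

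Postn exon 17: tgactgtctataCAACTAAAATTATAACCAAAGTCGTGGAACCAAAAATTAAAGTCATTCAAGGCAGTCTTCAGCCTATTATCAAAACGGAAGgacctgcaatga
Postn exon 21: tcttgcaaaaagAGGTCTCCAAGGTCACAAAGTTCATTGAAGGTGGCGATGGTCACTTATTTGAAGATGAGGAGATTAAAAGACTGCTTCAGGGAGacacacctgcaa

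Exon 17 has 81 bases and exon 21 has 84, the length of 27 and 28 codons, so the reading frame continues whether or not either is included. Their G and C content was 34.6 and 44.0%.

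Exon 17 had 1999, 2070 and 1718 RPKM at PND2 and 515, 602 and 673 RPKM at 4 months. Exon 21 had 2624, 3032 and 2026 RPKM at PND2 and 498, 646 and 873 RPKM at 4 months. Neither overlapped between the ages, and the values rest on 1161 to 8595 reads each. The 4 month mean of exon 17 was 0.309 and that of exon 21 0.263 of the PND2 mean. In the other 21 exons this ratio lay between 0.474 and 0.537 (median 0.497).

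Tested against the rest of the gene, exon 17 was lower at 4 months by a further 0.68 on the log2 scale (standard error 0.15, limma adjusted p = 0.00259) and exon 21 by 0.94 (standard error 0.15, adjusted p = 2.6e-06). These 2 were the only called positions of 37 tested in Postn. Over all genes 1.19% of exon rows were called, 0.645% of them as lower. With voom weights on the recovered reads, where 0.493% of rows were called (0.216% as lower), the adjusted p were 0.0129 and 2.2e-05. With only the shortest of overlapping exons kept, 2 of 23 Postn exons were called, and 1.28% of all (0.699% as lower). The test gives all exons of a gene 1 common spread, so an exon that varies more than its neighbours can be called too easily. Without 4 month replicate 1 exon 17 was no longer called (usage difference -0.58, adjusted p = 0.135), and exon 21 was (-0.74, adjusted p = 0.0138).

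The same exon values were also set out as ratios within single libraries, which are no separate support for the shift. Relative to the mean of exons 18 to 20, which lie between them, exon 17 stood at 0.421, 0.435 and 0.462 in the PND2 libraries and at 0.224, 0.279 and 0.297 in those of 4 months. Exon 21 stood at 0.552, 0.638 and 0.545 at PND2 and at 0.217, 0.300 and 0.385 at 4 months. In both exons every 4 month ratio was below every PND2 ratio. Exon 18 over exons 19 and 20, taken the same way, was 0.987 to 1.02 at PND2 and 1.00 to 1.12 at 4 months, which overlap. The ratio of exon 2 to exon 20, a measure of coverage from 5′ to 3′, also overlapped, at 0.304 to 0.475 and 0.381 to 0.410. Exon 22 over exon 20, both in all 4 transcripts, did not overlap between the ages either, at 1.488, 1.487 and 1.449 at PND2 against 1.430, 1.387 and 1.448 at 4 months, so the lack of overlap alone does not set exons 17 and 21 apart. Its mean at 4 months was 0.964 of that at PND2, whereas those of exons 17 and 21 over exons 18 to 20 were 0.607 and 0.520 of theirs.

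**Figure D4:**
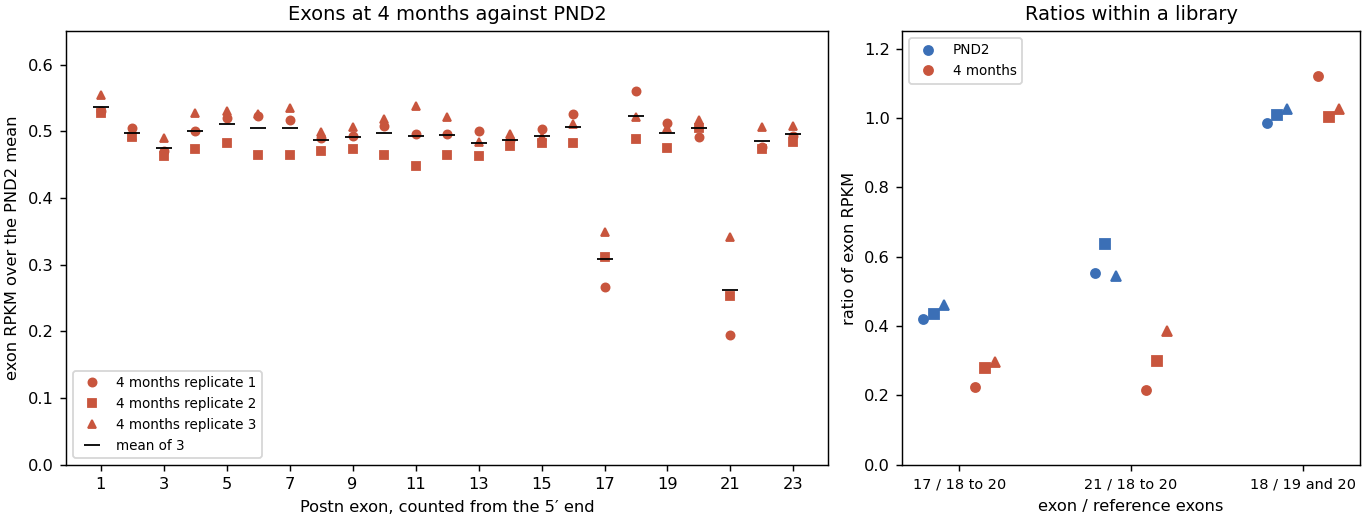
Left, RPKM of each Postn exon in the 3 libraries of 4 months over the PND2 mean of that exon, by exon number, with black bars for means of 3; right, ratios of exons within each library at PND2 (blue) and 4 months (red). Exons 17 and 21 fall to 0.309 and 0.263 while all others stay at 0.474 to 0.537, and their ratios to exons 18 to 20 do not overlap between the ages.

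Sparc and Sparcl1 moved in opposite directions. Sparc, on chromosome 11 from 55394500 to 55420080, encodes a collagen-binding protein that is needed for procollagen to be processed into fibrils. It had 1932, 2477 and 2069 RPKM at PND2 and 1239, 1199 and 1548 RPKM at 4 months. All 4 month libraries lay below all PND2 libraries, and Sparc remained the most abundant gene of the set in each of the 6. It fell by 0.70 on the log2 scale (standard error 0.18, limma adjusted p = 0.0194), a 1.63-fold difference of means. This was the least stable of the 7 calls, with an adjusted p of 0.0684 without PND2 replicate 2, 0.0586 without PND2 replicate 3 and 0.0588 after quantile normalization.

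Sparcl1, which encodes the close relative hevin and lies on chromosome 5 from 104079111 to 104113733, had 167, 130.2 and 198 RPKM at PND2 and 625, 536 and 456 RPKM at 4 months. The lowest 4 month library was above the highest PND2 library by more than the span within either age. Sparcl1 rose by 1.72 on the log2 scale (standard error 0.18, limma adjusted p = 6.2e-04), a 3.26-fold difference of means. Sparc stood at 11.6, 19.01 and 10.5 times Sparcl1 at PND2 and at 1.98, 2.24 and 3.39 times Sparcl1 at 4 months. The log2 ratio was lower by 2.42 at 4 months, with means of 3.72 and 1.30 (exact permutation test, p = 0.1).

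**Figure D5:**
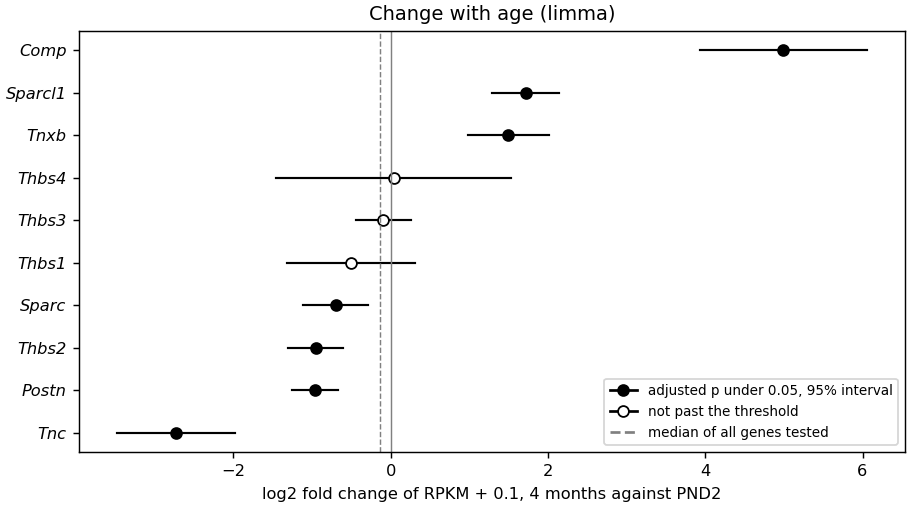
Log2 fold change of RPKM + 0.1 from PND2 to 4 months for the 10 genes, with limma's 95% confidence intervals, filled marks for an adjusted p under 0.05 and a dashed line at the median of all genes tested (-0.14). Comp (4.99), Sparcl1 (1.72) and Tnxb (1.50) lie to the right, Tnc (-2.73) farthest to the left, and the interval of Thbs4 is the widest.

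In order of mean level, the PND2 valve expressed Sparc (2160 RPKM), Postn (1019), Thbs1 (266), Sparcl1 (165), Thbs2 (146), Tnc (60.0), Thbs3 (43.5), Tnxb (29.7), Thbs4 (25.7) and Comp (10.6). At 4 months the order was Sparc (1329 RPKM), Sparcl1 (539), Postn (520), Comp (377), Thbs1 (191), Tnxb (83.1), Thbs2 (74.1), Thbs3 (40.9), Thbs4 (33.0) and Tnc (9.38). The libraries of neighbours overlapped at PND2 for Thbs1 with Sparcl1, Sparcl1 with Thbs2, Thbs3 with Tnxb and Tnxb with Thbs4. At 4 months they overlapped between Sparcl1, Postn, Comp and Thbs1 in turn, between Tnxb and Thbs2, and between Thbs3, Thbs4 and Tnc in turn. The gene value of Postn is spread over 8702 exonic bases, which include rows with retained introns, whereas its longest coding transcript has 3205. Computed for all 10 genes per base of the longest coding transcript, Postn had 2768 and 1411 RPKM and ranked second at both ages behind Sparc with 3161 and 1945 RPKM. At PND2 Thbs3 (65.8 RPKM) then stood just above Tnc (65.6 RPKM), so their order depends on the length used, and the other ranks at 4 months were those given except that Postn passed Sparcl1.

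Within an age, the highest and lowest libraries of each gene are given here for the set only. The matching shares over all genes tested were not computed. PND2 replicate 2 had the highest value of its age in 8 of the 10 genes and the lowest in Tnxb and Sparcl1. Among the 4 month libraries replicate 3 was highest in 6 genes, while replicate 1 was highest in Thbs3, Tnxb and Sparcl1 and lowest in Thbs1, Thbs2, Thbs4, Comp and Tnc. Comp, the third gene that rose with age, was among the 8 genes highest in PND2 replicate 2.

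Markers of other cell types moved between the ages too. Beside the counts given here, 14.7% of all genes tested were called higher and 21.1% lower at 4 months. Summed RPKM of 8 cardiomyocyte markers was 17006 to 19271 at PND2 and 6083 to 10125 at 4 months (5 lower, 0 higher), and that of 7 smooth muscle markers was 7203 to 8292 and 16569 to 27681 (6 higher). Endothelial markers went from 316 to 431 RPKM down to 191 to 205 (6 of 6 lower), macrophage markers from 237 to 257 up to 864 to 906 (5 of 5 higher), whereas 2 of 6 fibroblast markers were higher and 2 lower. Their sum was 4926 to 5407 RPKM at PND2 and 7152 to 9125 RPKM at 4 months, and without Dcn it overlapped, at 3910 to 4284 and 3657 to 4627 RPKM. Adipocyte markers were at 63.8 to 147 RPKM at PND2, with Cidec and Lep at 0, and at 322 to 1391 at 4 months, highest in replicate 2 (5 of 6 higher). Schwann cell markers (11.3 to 28.7 and 41.2 to 48.8 RPKM, 2 of 5 higher) and immediate early genes (143 to 167 and 555 to 762 RPKM, 7 of 8 higher) were higher at 4 months. The part of these shifts in the changes of the 10 genes was not tested.

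For Comp, the markers of skeletal tissues are given beside it, against shares over all genes of 14.7% higher and 21.1% lower. Cartilage markers summed to 79.9, 179 and 90.3 RPKM at PND2 and 128, 235 and 433 RPKM at 4 months, but Chad alone gave 112, 209 and 372 RPKM of the 4 month sums. Without Chad the sum was lower at 4 months, at 77.3, 172 and 87.1 RPKM and then 15.8, 25.4 and 60.8 RPKM. Of the 9, Chad and Ucma were higher at 4 months, Col9a1 and Acan lower, 3 were not called and 2 (Matn1 and Matn3) were below the filter. Tendon markers summed to 40.9 to 67.8 and 21.3 to 41.7 RPKM (1 higher and 1 lower of 4), and bone markers to 1.25 to 2.73 and 14.5 to 16.99 RPKM (3 higher, 0 lower and 1 not called of the 4 tested). Their part in the rise of Comp was not tested.

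Of 21 genes for receptors of these proteins, 11 were higher and 3 lower at 4 months. Their median log2 fold change was 0.49. Over all genes 14.7% were higher and 21.1% lower, with a median of -0.14. Among those that rose were Lrp1, an endocytic receptor that clears thrombospondins, from 55.7 ± 11.7 to 177 ± 16.1 RPKM (SD, n = 3), and Itga8, an integrin subunit that binds tenascin C, from 169 ± 8.01 to 533 ± 88.7 RPKM. Itgb6 was low at both ages and rose from 0.0302 ± 0.0141 to 0.841 ± 0.269 RPKM. The integrin subunit Itga4 fell from 15.8 ± 4.87 to 3.74 ± 0.664 RPKM, Itga2 from 1.99 ± 0.696 to 0.727 ± 0.221 RPKM, and the syndecan Sdc1 from 47.1 ± 7.23 to 27.9 ± 3.17 RPKM. Limma adjusted p of these 6 genes ran from 2.1e-04 to 0.0269.

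Of 9 further members of the same families, 3 were higher, 2 lower and 4 not called, with a median of -0.05. The shares over all genes were 14.7% higher and 21.1% lower, and the median -0.14. Smoc1 and Smoc2, which share the calcium-binding module of SPARC, rose from 32.3 ± 3.42 to 126 ± 25.5 RPKM (SD, n = 3) and from 43.2 ± 8.91 to 174 ± 38.0 RPKM. Fstl1, another protein with that module, fell from 1422 ± 216 to 502 ± 50.3 RPKM. Tenascin W (Tnn), a low-level tenascin, fell from 2.72 ± 1.14 to 0.553 ± 0.387 RPKM, with limma adjusted p from 2.7e-04 to 0.0126 over these 4 genes.

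Of 36 matrix partners, the collagens, proteoglycans and enzymes that these proteins bind, 34 were tested. Of these 10 were higher, 17 lower and 7 not called, with a median of -0.40. Among all genes 14.7% were higher and 21.1% lower, with a median of -0.14. The largest falls were those of Col9a1 from 23.2 ± 9.54 to 1.85 ± 1.22 RPKM (SD, n = 3), Col12a1 from 41.4 ± 13.4 to 5.64 ± 1.16 RPKM and Acan (aggrecan) from 81.4 ± 41.0 to 11.6 ± 4.64 RPKM. The largest rises were those of Vtn (vitronectin) from 0.237 ± 0.150 to 2.49 ± 0.273 RPKM, Col5a3 from 3.79 ± 0.472 to 15.1 ± 3.35 RPKM and Dcn (decorin) from 1054 ± 60.0 to 3961 ± 506 RPKM. Limma adjusted p of these 6 genes ran from 2.7e-04 to 0.00188.

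Genes with the pattern most like that of Comp and Tnc, the largest rise and fall of the set, were sought among 14214 genes with a mean of at least 5 RPKM, by the root mean square difference of centred log2 values over the 6 libraries. Nearest to Comp were Spp1 (0.425), which encodes osteopontin, Chad (0.441), which encodes the collagen-binding chondroadherin, and 1700119I11Rik (0.445). Spp1 had 2.63 to 2.77 RPKM at PND2 and 29.0, 64.5 and 192 RPKM at 4 months. Chad had 2.58 to 7.47 RPKM and then 112, 209 and 372 RPKM, and 1700119I11Rik had 1.14 to 2.28 RPKM and then 30.8, 62.3 and 53.1 RPKM. Replicate 3 was the highest 4 month library in Spp1 and Chad, and replicate 2 in 1700119I11Rik. Since the genes were chosen for closeness over these same libraries, a shared pattern is no separate result. Nearest to Tnc were Ddah1 (0.165), Acan (0.216) and Col12a1 (0.228). Ddah1 had 20.3 to 25.7 RPKM at PND2 and 2.76, 3.69 and 5.46 RPKM at 4 months.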

How the data were processed

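RNA of aortic valves was sequenced in 6 libraries, 3 per age. The study's methods state that reads were filtered, trimmed, aligned to mm10 with TopHat2 2.1.0 and counted on Ensembl genes and exons with easyRNASeq, and R 3.2.2 is named in the submitters' processing notes. The authors deposited RPKM values per gene and per exon, relative to exonic length and library total. Multiplying back with the inferred library totals gave whole reads for 100% of values above 0 (tolerance 0.001). Reads could be counted more than once, at several genes or exons. Whether strand was used in counting is not given in the sources used here.

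Genes with at least 0.1 RPKM in 3 libraries were tested with limma 3.58.1 (eBayes with a trend, 2-sided, Benjamini-Hochberg over all genes tested) in R 4.3.3, on log2(RPKM + 0.1), a scale that understates changes of low genes. For exon usage, limma's diffSplice was run on the exons that had 1 RPKM or more in 3 libraries. Ratios were compared with an exact permutation test in scipy 1.17.1. Exon numbers and sequences came from GENCODE M21 (GRCm38, the same assembly as mm10).

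The genes and lists were chosen with earlier results of these data known. All 10 genes are named, and genes of a list are named when called, without overlap and among the 3 largest rises or falls of that list. Cell type markers named beside a sum were chosen after their values were seen. Alternatives were pseudocounts of 1 and 0.01, other filters, no trend, an unequal-variance test, median scaling, quantile normalization, voom, a replicate block and each library left out. The use of the shortest of overlapping exons, and levels per coding transcript length, were added after the data were seen. The scripts were tested on simulated data.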

Additional observations from a re-analysis of the deposited data

How the results depend on the processing

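With a per-gene unequal-variance test on log2(RPKM + 0.1), 3 of the 10 genes were called at an adjusted p under 0.05 (Comp, Sparcl1 and Postn). Over all 25903 genes tested this test called 3408, against 9273 in the main fit. In the same test the adjusted p of Tnc, Tnxb, Sparc and Thbs2 were 0.0511, 0.0507, 0.0630 and 0.0872. At 0.1 it therefore called 7 of the 10, and the matching count over all genes was not computed. The study used a test of this kind with a floor on low values, which was not applied here. For its set of differentially expressed genes it took a t-test p under 0.05, not a false discovery rate, with a fold change over 2. It also counted genes at a false discovery rate under 0.1, and took one under 0.05 with a fold change over 2 for its functional terms. Its list of extracellular matrix genes from those terms names Comp, Tnc, Tnxb and Sparcl1. The other settings that kept all libraries called 6 or 7 of the 10 genes. Of all genes they called 7167 to 9696, out of 20165 to 32956 tested. With each library left out in turn 6 to 8 genes were called, the 8 without 4 month replicate 1, where Thbs4 was added. Over all 25903 genes these fits called 6447 to 8688. Thbs3 and Thbs4, which were not called, changed sign. Thbs3 had a log2 fold change of 0.0292 with median scaling and of -0.204 to 0.0400 with each library left out. Thbs4 had -0.0149 with voom on the recovered reads and -0.40 to 0.86 when each library was left out. The causes of these differences were not tested.

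The 3 ratios kept their direction with pseudocounts of 1 and 0.01 and with each library left out, where no smaller p can be reached. The number of Postn exon positions called was 2 in all other settings and 1 to 2 with each library left out, and that of Tnc exons was 0 in all of them. Over all genes tested, the correlations of deviations from the age means were 0.0439, -0.0608 and -0.160 for same-numbered libraries. Those of differently numbered libraries ran from -0.176 to 0.233. Whether replicate numbers pair the libraries cannot be decided from these values, which are not specific to the set. With a replicate block 7 genes and 2 Postn exon positions were called as before, and 7167 of all 25903 genes. The 3 ratios then had an exact sign-flip p of 0.25, the smallest that 3 pairs allow.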
